A study of Rattus norvegicus with 23 samples.

Results

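The 10 genes described here encode the subunits of the transcription factor AP-1 and the immediate early factors that act beside it, namely Fos, Fosb, Fosl1, Fosl2, Jun, Junb, Jund, Egr1, Atf3 and Srf. They were found by their gene name in the deposited tables of 30562 genes, and each of the 10 names matched a single gene. The material was bone (femora) of female Wistar rats, in 23 libraries of polyadenylated RNA, in a study of semaglutide and PYY3-36 in animals with metabolic osteoporosis. In the libraries labelled MetOP, the rats had received high-fat feeding together with L-NAME, which blocks nitric oxide synthase. They form 4 groups, namely semaglutide plus PYY3-36 (combination, 5 libraries), semaglutide alone (5 libraries), PYY3-36 alone (PYY, 4 libraries) and saline (5 libraries). Healthy control rats (4 libraries) carry the words standard and saline in their titles, with the unexplained abbreviation oLN. Single libraries are called by the number in their titles, such as A229. Semaglutide activates the receptor of the gut hormone GLP-1. The peptide PYY3-36 is also of gut origin and binds a neuropeptide Y receptor. The treatment labels of the PYY libraries run PYY3-36, PYY3-37, PYY3-38 and PYY3-39, so their grouping rests on the shared title. MetOP titles also hold the abbreviation lfd, which the labels do not explain, and ages are not given in the labels. No label says whether each library is a different rat. The p-values therefore cover the spread among these libraries, which may be technical.

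AP-1 is a pair of basic leucine zipper proteins, usually a Fos protein with a Jun protein, that binds DNA as a dimer. Fos proteins do not pair with each other and need a Jun partner, while Jun proteins can also pair among themselves. Fos, Jun, Egr1 and their relatives are called immediate early genes because growth factors, loading or stress switch them on within minutes without new protein synthesis. Much of that switch passes through SRF, which binds CArG boxes together with cofactors that answer to MAP kinases or to actin. In mice, bone needs this family. Loss of Fos leaves no osteoclasts, the cells that resorb bone, and excess Fosl1, or the short form of FosB, raises bone formation. Fosl2 and Junb also serve in osteoblasts, chondrocytes and osteoclasts of the mouse.

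Library totals ran from 19246641 to 40653404 counts. Mitochondrially encoded genes took 46.13 to 83.92% of them and left 4283002 to 16100164 counts for all other genes. Of all genes, 15271 passed a filter on low counts and were tested, and all 10 members were among them. The members were carried by 154 counts (Fosl1) to 26624 counts (Jun) over the 23 libraries. Femur markers varied widely between libraries. The summed level of 8 osteoblast genes ran from 134 to 6180 CPM, and that of 5 skeletal muscle genes from 1050 to 45000 CPM. CPM are counts relative to the library total after TMM scaling, a correction for differences in RNA make-up. In bulk tissue, fewer cells of a type and less RNA per cell cannot be told apart.

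On the deposited FPKM scale, which divides by gene length and so allows levels of different genes to be compared, 5 members stood close together at the top. Jun averaged 9.02 ± 2.47 FPKM over the 23 libraries (SD), Egr1 8.17 ± 3.49, Jund 7.91 ± 2.02, Fos 7.83 ± 4.24 and Atf3 7.25 ± 5.30 FPKM. Their means lay within 1 SD of each other. Srf followed at 5.03 ± 1.54 and Junb at 4.67 ± 2.14 FPKM. Fosl2 at 0.994 ± 0.695 and Fosb at 0.735 ± 0.776 FPKM were well below. Fosl1 stood at the floor, at 0.0655 ± 0.1001 FPKM, with 0 counts in 8 of 23 libraries. A count of 0 allows up to 3 counts in a library, for counting error only, or 0.0594 to 0.2 CPM depending on the library. Jun and Jund also varied least. Their coefficients of variation over all 23 libraries were 27.6% and 25.2%, against 104% for Fosb and 74.5% for Atf3.

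**Figure D1:**
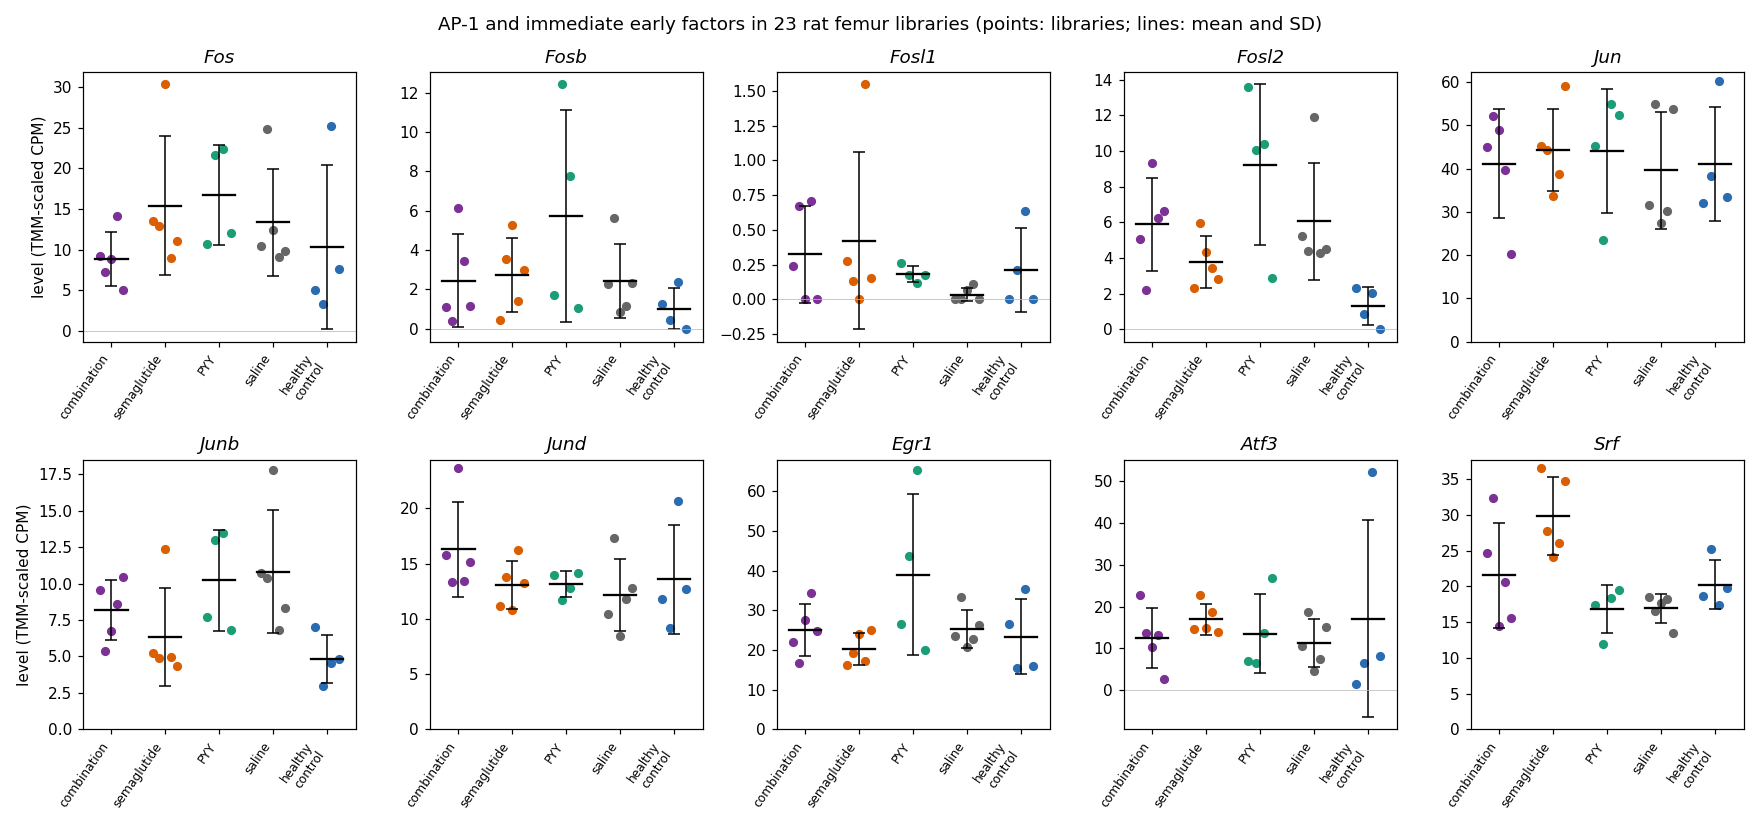
TMM-scaled CPM of the 10 members (vertical axes) in the 5 groups (horizontal axes); points are libraries, and lines show the mean and SD of a group. Srf in semaglutide libraries (24.1 to 36.5 CPM) lies above all saline libraries (13.5 to 18.5 CPM), and Fosl2 in saline libraries lies above all healthy control libraries, while Jun and Jund overlap in every group.

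No member passed an adjusted p of 0.05 in edgeR's quasi-likelihood test in any of 12 tests, which were the 10 pairs of groups, the interaction of the 2 drugs and a test of any difference among the 5 groups. The same fit called few genes of any kind. It called 0% of the 15271 genes in 9 of the 12 tests, 0.0196% between PYY and healthy control, 0.00655% between semaglutide and PYY, and 0.00655% in the test over 5 groups. The values that follow are therefore given with their unadjusted p, to be read against the share of all genes that reached the same level. In the test over the 5 groups, 4 members had an unadjusted p under 0.05, a level that 9.38% of all genes reached. Srf had an unadjusted p of 0.00411 (adjusted p = 0.343 in edgeR) and Fosl2 one of 0.0074 (adjusted p = 0.381 in edgeR). Junb followed at 0.0197 (adjusted p = 0.439 in edgeR) and Egr1 at 0.0493 (adjusted p = 0.532 in edgeR). DESeq2 called 2 of these 4 in that test, Fosl2 at an adjusted p of 0.0332 and Srf at 0.0443, where it called 2.61% of the genes it adjusted. Jun, Jund, Fos, Fosb, Fosl1 and Atf3 had p between 0.203 and 0.977 in the same edgeR test.

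Among the Jun proteins, which can build AP-1 with or without a Fos partner, Junb had the larger differences. Junb (ENSRNOG00000067725), which in mouse cells often opposes Jun in growth control, had 10.8, 10.4, 17.8, 6.84 and 8.35 CPM in the saline libraries, against 7.02, 3.004, 4.52 and 4.798 CPM in healthy control libraries. The means were 10.8 ± 4.20 CPM in saline (SD, n = 5) and 4.83 ± 1.66 CPM in healthy control (n = 4), and the groups overlapped by a single saline library at 6.84 CPM. This gave a log2 fold change of 1.16 ± 0.36 (SE; 95% interval 0.42 to 1.90, unadjusted p = 0.00357, adjusted p = 0.631 in edgeR). Between saline and healthy control 2 of 10 members, Junb and Fosl2, reached an unadjusted p of 0.05, which 6.55% of all genes did. All 7 osteoclast marker genes had positive log2 fold changes in the same comparison, with a summed level of 40.8 to 621 CPM in saline and 67.6 to 487 CPM in healthy control, and all 5 muscle genes negative ones. All 4 fibroblast, 4 chondrocyte and 5 macrophage genes tested had positive ones as well. The part of these cells in the Junb and Fosl2 values was not tested, and after adding the muscle level to the fit the log2 fold changes were 1.11 for Junb and 2.11 for Fosl2. The saline library with the highest Junb level, A229, also had the largest mitochondrial share of all libraries at 83.9%, and without it the log2 fold change was 0.91.

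Semaglutide libraries had Junb at 5.25, 4.88, 12.4, 4.94 and 4.32 CPM, so that 4 of 5 lay below every saline library. Library A241 was the exception at 12.4 CPM. The log2 fold change from saline was -0.77 ± 0.33 (SE; 95% interval -1.45 to -0.09, unadjusted p = 0.0288, adjusted p = 0.403 in edgeR). It ran from -1.16 without semaglutide library A241 to -0.52 without saline library A229. In the other drug groups Junb averaged 8.16 ± 2.06 CPM in combination (n = 5) and 10.2 ± 3.47 CPM in PYY (n = 4), with log2 fold changes of -0.41 and -0.08 from saline and intervals that held 0. Against healthy control, Junb had a log2 fold change of 0.75 ± 0.35 in combination, 0.39 ± 0.35 in semaglutide and 1.08 ± 0.37 in PYY (SE). The deposited annotation lists Junb as a pseudogene and RefSeq as a protein-coding gene, on chromosome 19 from 23176294 to 23178035 (mRatBN7.2, plus strand).

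Jun, whose protein forms the classic pair with Fos, and Jund, the most constant Jun of resting cells, reached no unadjusted p of 0.05 in any comparison. Jun averaged 41.2 ± 12.6 CPM in combination, 44.3 ± 9.53 in semaglutide, 44.03 ± 14.3 in PYY, 39.6 ± 13.6 in saline and 41 ± 13.2 CPM in healthy control. Its log2 fold changes from saline were 0.06, 0.16 and 0.15 in the 3 drug groups, and the widest of their 95% intervals was -0.47 to 0.77. Jund averaged 16.3 ± 4.26 CPM in combination and 12.2 ± 3.29 CPM in saline, its largest difference from saline (log2 fold change 0.42, 95% interval -0.06 to 0.90), and combination library A253 alone stood at 23.7 CPM. These intervals leave room for changes of that size, so equal levels were not shown.

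**Figure D2:**
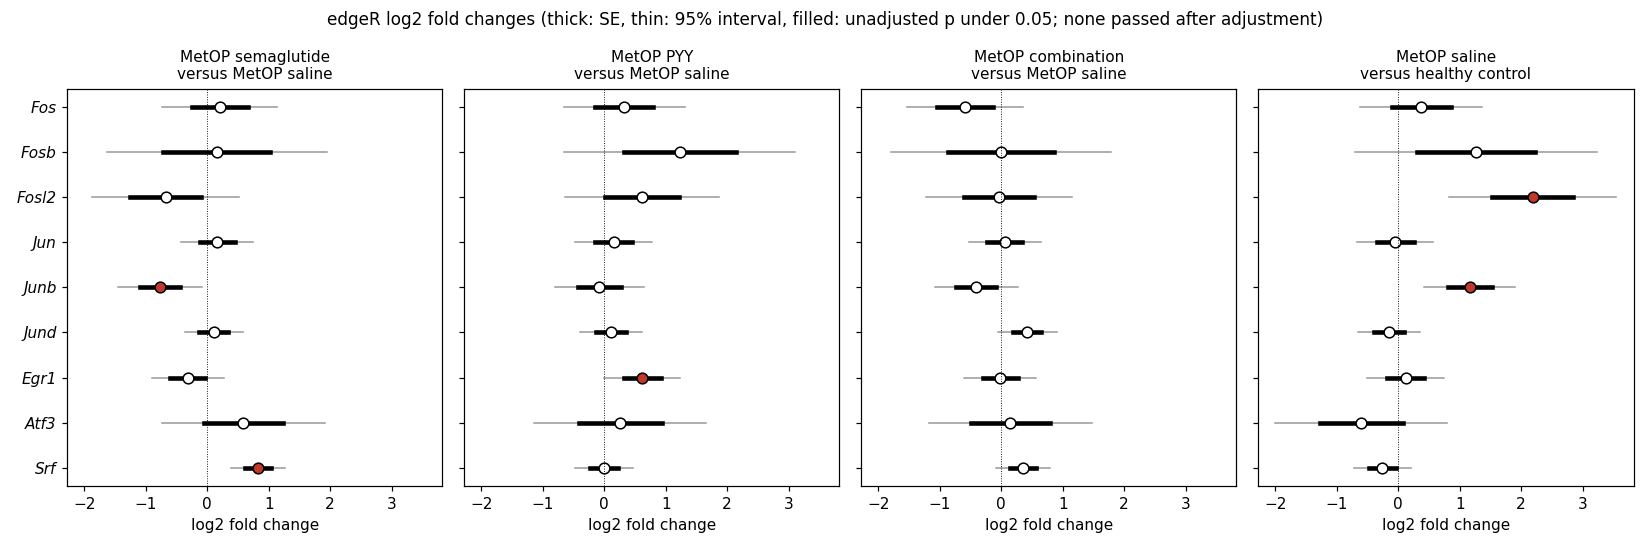
edgeR log2 fold changes (horizontal axis) of 9 members (rows; Fosl1 is left out because most of its saline counts are 0) in 4 comparisons; thick bars are SE, thin bars 95% intervals, and filled points have an unadjusted p under 0.05. Srf and Junb are filled for semaglutide, Egr1 for PYY, none for combination, and Fosl2 and Junb for saline against healthy control; none passed after adjustment.

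The share of each Jun gene in the FPKM sum of the family followed the same lines. Junb took 29 ± 12% of the Jun family FPKM in saline libraries (SD, n = 5), against 14.8 ± 5.91% in healthy control libraries (n = 4). It took 21 ± 7.33% in combination, 17.7 ± 9.55% in semaglutide and 25.9 ± 9.84% in PYY. Single libraries ran from 20.1 to 48.6% in saline and from 9.41 to 22.7% in healthy control, so the ranges met. The sum itself was 21.8 ± 4.36 FPKM in saline and 19.1 ± 5.09 FPKM in healthy control.

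**Figure D3:**
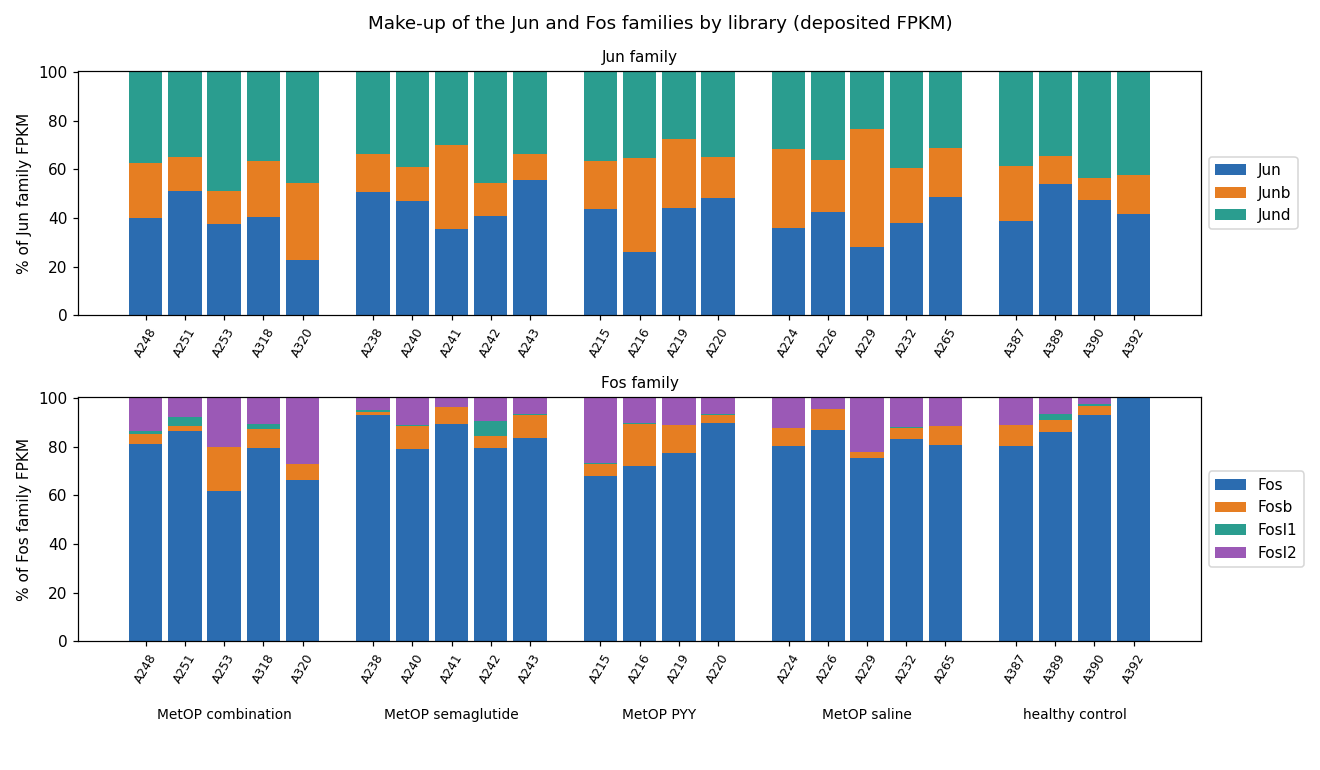
Share of each gene in the summed FPKM of the Jun family (upper panel) and the Fos family (lower panel), in percent (vertical axes), with 1 bar per library grouped by treatment. Junb reaches 48.6% in saline library A229 and Fosl2 27.2% in combination library A320, while Fos takes 61.7% or more in every library.

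Among the Fos proteins, Fosl2 (Fra-2), a subunit that acts in osteoblasts and in cartilage of the mouse, differed most. The gene (ENSRNOG00000068412) lies on chromosome 6 from 24300956 to 24320034 (mRatBN7.2, minus strand). Its levels were 5.21, 4.38, 11.9, 4.31 and 4.48 CPM in the saline libraries, against 2.32, 0.846, 2.05 and 0 CPM in healthy control libraries. The saline libraries all lay above the healthy control libraries, as 1.57% of all genes did, and healthy control library A392 held 0 counts where its group had up to 65. Library A392 also held 0 counts of Fosb, a mitochondrial share of 82.6% and the lowest TMM factor of all libraries, 0.525. Saline library A229, the highest at 11.9 CPM, had a mitochondrial share of 83.9%, and saline library A265, at 4.48 CPM, one of 82.2%. Means were 6.06 ± 3.28 CPM in saline (SD, n = 5) and 1.30 ± 1.08 CPM in healthy control (n = 4). The log2 fold change was 2.19 ± 0.66 (SE; 95% interval 0.83 to 3.55, unadjusted p = 0.00289, adjusted p = 0.631 in edgeR). It was 1.79 without healthy control library A392 and 2.62 without A387, the lowest and highest values with single libraries left out. Without saline library A229 it was 1.80, and without mitochondrially encoded genes 2.20. The part of library quality in these values was not tested.

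Fosl2 was highest on average in PYY and lowest of the drug groups in semaglutide. PYY libraries had 13.6, 10.1, 10.4 and 2.87 CPM, combination libraries 5.07, 2.18, 9.33, 6.22 and 6.66 CPM, and semaglutide libraries 2.31, 5.99, 4.34, 3.43 and 2.84 CPM. Each PYY library lay above each healthy control library, as 4.86% of all genes did, and their log2 fold change was 2.80 ± 0.69 (SE; 95% interval 1.37 to 4.23, unadjusted p = 0.000471, adjusted p = 0.111 in edgeR). This is the smallest unadjusted p of any member in any of the 10 pairs of groups. DESeq2 gave it a log2 fold change of 2.87 and an adjusted p of 0.00192, where it called 2.77% of genes. PYY library A220, at 2.87 CPM, stood below the other 3, and without it edgeR called Fosl2 as well (log2 fold change 3.10, adjusted p = 0.0444), among 0.375% of genes. Library A220 also had the lowest summed osteoblast level of its group, at 157 CPM against 1240 to 6180 CPM in the other 3 PYY libraries, and the part of this in the result was not tested. All 4 fibroblast and all 4 endothelial genes had positive log2 fold changes in PYY against healthy control, 3 and 4 of them with an unadjusted p under 0.05. Fibroblast genes had a median sum of 491 CPM in PYY (60.9 to 1120 CPM) and of 180 CPM in healthy control, whose lowest sum was 155 CPM, and PYY library A215 had both the highest sum and the highest Fosl2 level. Endothelial genes summed to 83.9 to 272 CPM in PYY and 76 to 142 CPM in healthy control, and the part of both lists in the Fosl2 value was not tested.

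Against healthy control, 4 of 10 members had an unadjusted p under 0.05 in PYY, a level that 12.9% of all genes reached, and these were Fosl2, Junb, Fosb and Egr1. In combination 2 of 10 did, Fosl2 (log2 fold change 2.15 ± 0.66 SE) and Junb, against 5.7% of all genes. In semaglutide 2 of 10 did, Fosl2 (1.51 ± 0.64) and Srf (0.56 ± 0.23), against 8.33%. The 4 MetOP groups share the healthy control libraries in these comparisons, so their Fosl2 values rest on the same 4 low libraries. From saline, the log2 fold changes of Fosl2 were -0.68 in semaglutide, 0.61 in PYY and -0.04 in combination, with intervals that all held 0. Between semaglutide and PYY it was -1.29 ± 0.61 (SE; unadjusted p = 0.0446, adjusted p = 0.282 in edgeR).

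Fos, the founding member and in mice a requirement for osteoclasts, varied widely among libraries of the same group. It had 13.5, 13.0, 30.4, 8.995 and 11.1 CPM in semaglutide, and 10.5, 24.9, 12.4, 9.12 and 9.87 CPM in saline. Both groups thus held 1 library far above the rest. PYY libraries had 10.7, 21.7, 22.4 and 12.04 CPM, combination libraries 9.18, 7.29, 8.83, 14.1 and 4.995 CPM, and healthy control libraries 5.09, 3.30, 25.2 and 7.58 CPM. No pair of groups was separate. The largest log2 fold change of Fos was -0.91 ± 0.48 for combination against PYY (SE; 95% interval -1.90 to 0.07, unadjusted p = 0.0678, adjusted p = 0.844 in edgeR).

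Fosb, whose short splice form is known from mouse bone, was a low gene with a wide spread. The PYY libraries held 1.72, 12.4, 7.78 and 1.03 CPM, against 1.25, 0.423, 2.37 and 0 CPM in healthy control libraries, so the groups overlapped. The log2 fold change was 2.49 ± 1.02 (SE; 95% interval 0.38 to 4.60, unadjusted p = 0.0229, adjusted p = 0.307 in edgeR) and ranged from 1.78 to 3.32 as single libraries were left out. From saline, Fosb had log2 fold changes of 0.15 in semaglutide, 1.22 in PYY and -0.01 in combination, each with an SE of 0.86 or more. Gene counts do not separate its splice forms.

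Fosl1 (Fra-1) was too low to compare. Its counts were 9, 5, 4 and 9 in PYY libraries and 0, 0, 1, 3 and 0 in saline libraries, so that the groups were apart, as 1.11% of all genes were in this direction, yet all saline counts were at or under the limit of 3. Of its 154 counts, 47 came from semaglutide library A242.

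In the Fos family, Fos held most of the FPKM sum. Its share was 75 ± 10.5% in combination, 84.9 ± 6.15% in semaglutide, 76.8 ± 9.38% in PYY, 81.3 ± 4.23% in saline and 89.8 ± 8.48% in healthy control (SD). Fosl2 took 15.9 ± 7.73% in combination, 7.17 ± 3.04% in semaglutide, 13.6 ± 8.82% in PYY, 12.5 ± 6.26% in saline and 5.08 ± 4.96% in healthy control. The ranges of all 5 groups overlapped.

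Atf3, a stress-induced leucine zipper factor that can pair with Jun, gave no difference between groups. It averaged 12.5 ± 7.24 CPM in combination, 16.98 ± 3.73 in semaglutide, 13.5 ± 9.50 in PYY, 11.3 ± 5.66 in saline and 17.1 ± 23.6 CPM in healthy control. Healthy control library A390 alone, at 52.2 CPM, set the last mean and SD, and the other 3 held 1.496 to 8.23 CPM. Semaglutide libraries, at 13.9 to 22.8 CPM, were the most alike. Their log2 fold change from saline was 0.59 ± 0.64 (SE; 95% interval -0.74 to 1.91). From healthy control it was -0.01 (95% interval -1.41 to 1.39), with A390 among the controls. The groups overlapped, as A390 lay above and the other healthy control libraries below every semaglutide library. Leaving out any single library, A390 included, gave no call of Atf3. The 95% intervals are wide, so equal levels were not shown.

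Srf, the factor that binds CArG boxes in the control regions of immediate early and actin genes, had the smallest unadjusted p of the members against saline. The gene (ENSRNOG00000018232) lies on chromosome 9 from 14426472 to 14435733 (mRatBN7.2, plus strand). Its levels were 36.5, 27.8, 24.1, 26.1 and 34.8 CPM in semaglutide libraries, against 18.5, 16.6, 17.7, 18.3 and 13.5 CPM in saline libraries. Every semaglutide library stood above every saline library, as 2.71% of all genes did. The means were 29.9 ± 5.48 CPM in semaglutide and 16.9 ± 2.05 CPM in saline (SD, n = 5 each). This gave a log2 fold change of 0.82 ± 0.21 (SE; 95% interval 0.38 to 1.26, unadjusted p = 0.000814, adjusted p = 0.371 in edgeR) and stayed between 0.75 and 0.89 with any library left out. An unadjusted p under 0.05 was reached by 2 of 10 members, Srf and Junb, and by 11.4% of all genes in this comparison. DESeq2 called Srf (log2 fold change 0.81, adjusted p = 0.0369) among 0.632% of genes, and over the 6 alternatives other than leaving out a library, DESeq2 included, its adjusted p ran from 0.0369 to 0.404.

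Srf in the other groups was 24.7, 32.4, 14.5, 20.7 and 15.5 CPM in combination libraries, 17.4, 11.99, 18.4 and 19.5 CPM in PYY libraries, and 18.6, 25.2, 17.3 and 19.8 CPM in healthy control libraries. Ordered by mean, semaglutide (29.9 CPM) came first, then combination (21.6), healthy control (20.2), saline (16.9) and PYY (16.8 CPM). Neighbours from combination to PYY differed by less than the SD of combination. Combination libraries, at 14.5 to 32.4 CPM, overlapped every other group, with a log2 fold change of 0.35 ± 0.21 from saline (SE; 95% interval -0.09 to 0.79) and of -0.47 ± 0.21 from semaglutide (unadjusted p = 0.0369, adjusted p = 0.816 in edgeR). The interaction of the 2 drugs on Srf, the departure of the combination from adding both log2 effects, was -0.46 ± 0.31 (SE; unadjusted p = 0.149, adjusted p = 0.999 in edgeR). No member had an unadjusted interaction p under 0.05, which 4.58% of all genes had.

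Markers of other cells moved in the same comparison, and their levels are given beside Srf. All 5 tested skeletal muscle genes had positive log2 fold changes in semaglutide against saline, with a summed level of 10600 to 40400 CPM in semaglutide and 10800 to 22400 CPM in saline. All 8 osteoblast genes had negative ones, with 156 to 680 CPM in semaglutide and 341 to 6010 CPM in saline, as had all 7 osteoclast genes, with 10.5 to 56.3 CPM in semaglutide and 40.8 to 621 CPM in saline. No osteoblast, osteoclast or muscle gene was at 0 in all libraries of either group, and none of the differences passed the adjusted test. With the muscle level as a covariate, Srf had a log2 fold change of 0.74 (unadjusted p = 0.000431, adjusted p = 0.404 in edgeR). The library with the highest muscle level also had the highest Srf level in combination (A251, 45000 and 32.4 CPM), in semaglutide (A238, 40400 and 36.5 CPM) and in healthy control (A389, 36500 and 25.2 CPM). PYY library A216 had the lowest of both in its group, 2030 and 11.99 CPM. In PYY the highest muscle level was in A219 (17100 CPM) and the highest Srf level in A220 (19.45 CPM). In no other group did the lowest of both fall in the same library. In combination these were A320 for muscle (1050 CPM) and A253 for Srf (14.51 CPM). In saline the library with the highest muscle level, A265 at 22400 CPM, had the lowest Srf level, 13.5 CPM, and semaglutide library A242 had 10600 CPM of muscle genes and 26.1 CPM of Srf. All 4 fibroblast genes and all 4 tested chondrocyte genes also had negative log2 fold changes in semaglutide against saline. Fibroblast genes summed to 69.2 to 148 CPM in semaglutide and 130 to 520 CPM in saline, and chondrocyte genes to 3.02 to 62.7 CPM in semaglutide, with 1 gene at 0 in all its libraries, and 23 to 3650 CPM in saline. Of the marrow lists, all 5 macrophage, all 5 erythroid and 5 of 6 neutrophil genes were negative too. Macrophage genes summed to 9.81 to 26.3 CPM in semaglutide and 27.5 to 51.2 CPM in saline, neutrophil genes to 91.5 to 2000 and 659 to 1320 CPM. The library with the highest neutrophil sum also had the highest Junb level in saline (A229), semaglutide (A241) and combination (A320), but not in PYY or healthy control. The part of these muscle, bone, cartilage, fibroblast and marrow markers in the Srf and Junb results was not tested.

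Egr1, a zinc finger factor of the immediate early response, was highest in PYY libraries on average, with a wide spread. The gene (ENSRNOG00000019422) lies on chromosome 18 from 26462981 to 26466766 (mRatBN7.2, plus strand). It had 26.6, 43.8, 65.4 and 20.04 CPM in PYY libraries, against 23.5, 33.2, 20.7, 22.8 and 26.3 CPM in saline libraries. PYY libraries A216 and A219 stood above all others, while A220 lay below all saline libraries. The log2 fold change was 0.62 ± 0.30 (SE; 95% interval from 0.00 to 1.24, unadjusted p = 0.0495, adjusted p = 1 in edgeR), and it was the only member under an unadjusted p of 0.05 in this comparison, where 4.85% of all genes were. This value was 0.33 without PYY library A219. In the same comparison all 4 endothelial and all 4 fibroblast genes had positive log2 fold changes, 3 of the endothelial ones with an unadjusted p under 0.05. All 5 muscle, 5 erythroid, 5 macrophage and 6 neutrophil genes tested had negative ones. Endothelial genes summed to 254, 174, 272 and 83.9 CPM in PYY libraries A215, A216, A219 and A220, and to 78.4 to 113 CPM in saline. The part of these lists in the Egr1 value was not tested.

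Semaglutide libraries held Egr1 at 16.1, 19.2, 24.1, 17.3 and 25.0 CPM, so semaglutide and PYY overlapped. Semaglutide against PYY gave a log2 fold change of -0.94 ± 0.30 (SE; unadjusted p = 0.0047, adjusted p = 0.155 in edgeR). In the same comparison Srf had 0.83 ± 0.23 (unadjusted p = 0.00138, adjusted p = 0.103) with every semaglutide library above every PYY library, as 2.89% of all genes were. With Fosl2, 3 of 10 members reached an unadjusted p of 0.05, and 16.9% of all genes did. DESeq2 called both Egr1 (adjusted p = 0.045) and Srf (adjusted p = 0.025) among 4.26% of genes. Without PYY library A220, edgeR called both as well, Egr1 at -1.15 (adjusted p = 0.0276) and Srf at 0.91 (adjusted p = 0.0395), but it then called 6.5% of all genes. With the muscle level as a covariate Srf came to 0.58 (adjusted p = 0.451 in edgeR) and Egr1 to -0.98 (adjusted p = 0.41). All 8 osteoblast, 4 chondrocyte, 4 fibroblast and 4 endothelial genes tested had negative log2 fold changes in semaglutide against PYY. Fibroblast genes had a median of -2.70, with sums of 69.2 to 148 CPM in semaglutide and 60.9 to 1120 CPM in PYY. Endothelial genes had a median of -0.96, with sums of 67.3 to 114 CPM in semaglutide and 83.9 to 272 CPM in PYY, and the part of these lists in the result was not tested. Combination libraries had Egr1 at 16.8 to 34.3 CPM, with a log2 fold change of -0.64 ± 0.30 from PYY (unadjusted p = 0.0447, adjusted p = 0.782 in edgeR). Egr1 or Srf, 1 of 10 members each, reached an unadjusted p of 0.05 in combination against PYY (6.24% of all genes) and in combination against semaglutide (5.65%). In combination against saline no member did, where 3.06% of all genes did.

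The promoters of Egr1, Srf, Junb and Fosl2 are printed because these 4 members had an unadjusted p under 0.05 in the test over the 5 groups. RefSeq promoters of the GRCr8 build, 250 bases before to 50 bases after the start, were found for 7 of the 10 members, namely Fosb, Fosl1, Fosl2, Junb, Jund, Egr1 and Srf. The 250 bases before the start are shown, 5′ to 3′ on the strand of the gene, at chr18:26736828-26737077 (plus strand) for Egr1, chr9:21923826-21924075 (plus strand) for Srf, chr19:40080876-40081125 (plus strand) for Junb and chr6:30039270-30039519 (minus strand) for Fosl2. Capitals mark CArG boxes and TATAAA matches, and Fosl2 held neither.
Egr1: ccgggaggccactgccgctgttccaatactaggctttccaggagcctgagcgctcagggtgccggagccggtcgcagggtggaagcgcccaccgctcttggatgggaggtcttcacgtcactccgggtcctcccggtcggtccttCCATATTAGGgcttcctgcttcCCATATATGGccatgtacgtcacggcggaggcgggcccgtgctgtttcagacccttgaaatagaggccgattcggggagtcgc
Srf: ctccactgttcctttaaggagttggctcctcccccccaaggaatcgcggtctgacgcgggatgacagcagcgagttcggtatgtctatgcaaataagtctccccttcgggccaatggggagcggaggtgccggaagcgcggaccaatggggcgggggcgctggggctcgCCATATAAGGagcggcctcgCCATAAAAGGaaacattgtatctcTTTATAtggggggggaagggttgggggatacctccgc
Junb: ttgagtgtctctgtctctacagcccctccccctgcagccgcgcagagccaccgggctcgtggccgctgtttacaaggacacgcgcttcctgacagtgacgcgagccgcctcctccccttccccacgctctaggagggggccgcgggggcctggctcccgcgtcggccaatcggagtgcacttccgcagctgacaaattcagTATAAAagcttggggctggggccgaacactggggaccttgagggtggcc
Fosl2: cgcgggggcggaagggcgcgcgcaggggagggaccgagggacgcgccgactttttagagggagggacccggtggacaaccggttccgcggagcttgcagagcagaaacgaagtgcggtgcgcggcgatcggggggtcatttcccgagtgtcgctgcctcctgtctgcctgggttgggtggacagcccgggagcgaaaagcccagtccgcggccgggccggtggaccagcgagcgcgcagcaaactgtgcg

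A CArG box, which is CC and GG around a stretch of A and T bases, was searched on both strands. Egr1 held it at -105 (CCATATTAGG) and at -83 (CCATATATGG), and Srf at -81 (CCATATAAGG) and at -61 (CCATAAAAGG), counted from the start. At least 1 CArG box stood in 548 of 33469 promoters of the same length (1.64%), and 2 or more stood in 7 of them (0.0209%), which include Egr1 and Srf. TATAAA was found in Junb at -49, on the other strand in Srf at -37 and in Fosb at -180, and on either strand in 14.2% of all promoters. None of these matches overlapped another. Jund held TGACGTCA at -221, a site that ATF and Jun pairs bind, as did 1.83% of all promoters, and GCGTGGGCG at -76, the EGR site, as did 0.544%. The AP-1 site TGACTCA was in none of the 7 windows and in 4.63% of all promoters.

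Over the 23 libraries, 31 of the 45 pairs of members had a positive Pearson r on log2 CPM, with a median of 0.18. After Benjamini-Hochberg adjustment over the 45 pairs, 5 pairs passed 0.05 by both Pearson's r and Spearman's rho (permutation tests, 2-sided, 100000 resamples). Fosb and Egr1 had r = 0.76 (adjusted permutation p = 0.00248) and rho = 0.80 (adjusted p = 0.00045, from the smallest p that these resamples can give), and r was 0.74 without the 2 libraries farthest out in Fosb. Jun and Atf3 had r = 0.71 and rho = 0.69 (adjusted permutation p of 0.00135 and 0.006), and 0.65 without 2 libraries. Those 2 were A216 and A320, farthest out in Jun. Healthy control library A390, the highest of all 23 in both genes (60.38 and 52.21 CPM), stayed in. Fos and Fosb had r = 0.61 and rho = 0.60 (adjusted permutation p of 0.0189 and 0.029), and 0.55 without 2. Fosl2 and Junb had r = 0.61 and rho = 0.72 (adjusted permutation p of 0.0137 and 0.00428), and 0.66 without 2. In this pair r of the deviations from the group means was 0.33, lower than the pooled value. Egr1 and Srf were the only 1 of the 5 with a negative relation, r = -0.56 and rho = -0.65 (adjusted permutation p of 0.0333 and 0.0125), with -0.57 without 2 libraries and -0.44 for deviations from the group means. Fosb and Fosl2 had r = 0.75, but rho = 0.52 did not pass (adjusted permutation p = 0.0709) and r was 0.51 without 2 libraries. Library depth, mitochondrial share and tissue make-up are shared by the 2 genes of each pair, and their part in these values was not tested.

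**Figure D4:**
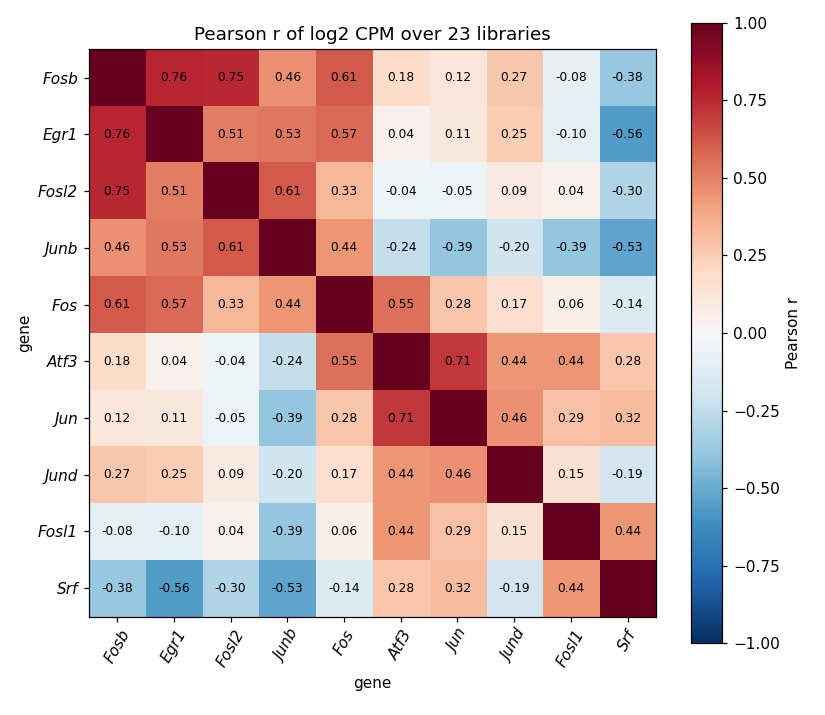
Pearson r of log2 CPM over 23 libraries for the 45 pairs of members; red is positive and blue negative. Fosb, Egr1, Fosl2, Junb and Fos form a positive block (r from 0.33 to 0.76), Jun and Atf3 pair at 0.71, and Srf is negative with Egr1 (-0.56) and Junb (-0.53).

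**Figure D5:**
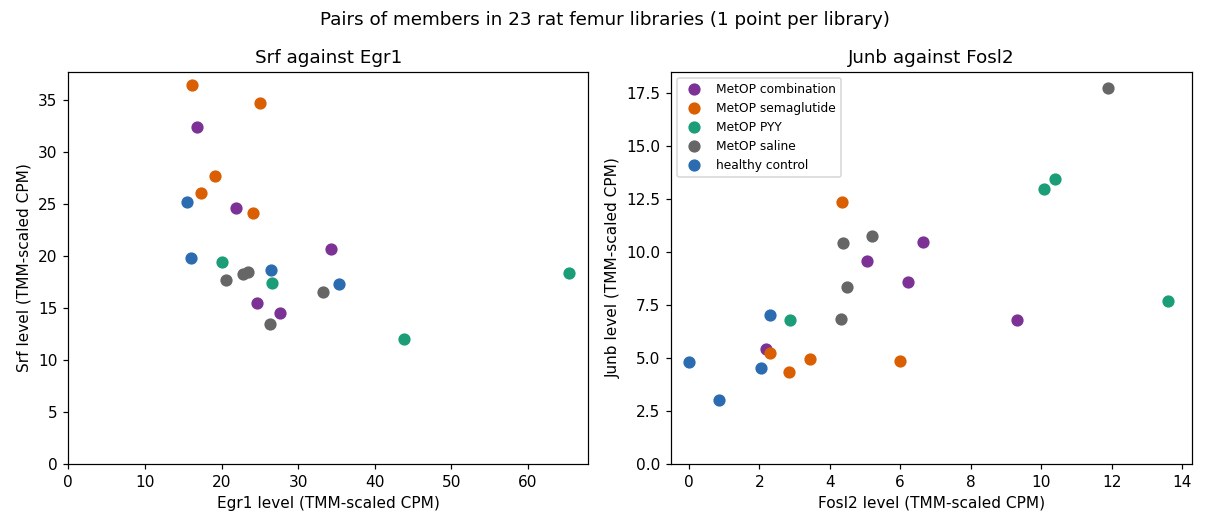
Srf against Egr1 (left) and Junb against Fosl2 (right), in TMM-scaled CPM, with 1 point per library coloured by group. Srf is 24.1 CPM or more in all semaglutide libraries, whose Egr1 is 25.0 CPM or less, and the healthy control libraries lie at the low end of both Fosl2 (0 to 2.32 CPM) and Junb (3.004 to 7.02 CPM).

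Genes most like each member over the 23 libraries, by Pearson r on log2 CPM and given as a description, were as follows. The closest to Fosl2 was Tcf12, an E protein transcription factor (r = 0.906), then Tshz2 (0.891) and Peak1 (0.88). The closest to Srf was Bag6, a chaperone cofactor (r = 0.878), then Ttc1 (0.854) and Mapkapk5, a kinase below p38 MAP kinase (0.841). Junb was closest to Pak2, a kinase below the small GTPases Rac and Cdc42 (0.838), Atf3 to Ryr3, a calcium channel gene (0.845), and Jun to Il11ra1, the IL-11 receptor subunit (0.828). Fosb was closest to Haus8 (0.815), Egr1 to Lima1, an actin-binding protein (0.763), Fosl1 to Disp2 (0.763), Jund to Ddx56 (0.733) and Fos to Vstm2b (0.709). The median r of a member with all other genes lay between -0.017 and 0.064.

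Of the genes listed as AP-1 targets in bone, 22 of 25 were tested, and none passed the adjusted test in any comparison. In semaglutide against saline 20 of the 22 had negative and 2 positive log2 fold changes, with a median of -0.89, against -0.04 over all genes, of which 47.6% were positive. Ibsp, a bone matrix protein of osteoblasts, had -3.55 ± 0.85 (SE), Ctsk, the collagen-cutting protease of osteoclasts, -3.41 ± 0.84, and Acp5, the osteoclast phosphatase, -3.63 ± 0.89. These 3 genes also stand in the osteoblast or osteoclast marker lists, in which every gene had a negative log2 fold change here. Of the other targets, Bglap also stands in the osteoblast list and Sost in the osteocyte list, where 3 of 4 genes were negative. In combination against saline 18 of 22 were negative (median -0.58), in PYY 7 of 22 (median 0.14) and in saline against healthy control 5 of 22 (median 0.40). Of all genes, 52.5% were positive in combination against saline, 49.5% in PYY against saline and 52.5% in saline against healthy control. In PYY against saline Nfatc1, the master factor of osteoclasts that Fos switches on in mice, had 0.73 ± 0.24 (SE).

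Of SRF cofactors and targets, all 19 were tested, and none passed the adjusted test in edgeR in any pair of groups or in the interaction. In semaglutide against saline 10 were positive and 9 negative, with a median of 0.04. None of the 19 had an unadjusted p under 0.05 in edgeR, where 11.4% of all genes did, and 47.6% of all genes were positive. In PYY against saline 13 were positive and 6 negative, with a median of 0.31, against 49.5% positive of all genes. The smooth muscle actin gene Acta2 had 1.51 ± 0.53 (SE), the actin-binding gene Tagln 1.29 ± 0.46 and filamin Flna 1.14 ± 0.44, where Srf itself had -0.01 ± 0.23. In combination against saline 17 of 19 were positive (median 0.33), against 52.5% of all genes, with Tagln at 1.21 ± 0.44. In PYY against saline all 4 endothelial marker genes were also positive, with a summed level of 83.9 to 272 CPM in PYY and 78.4 to 113 CPM in saline, and their part in these values was not tested.

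Among other immediate early genes 37 of 40 were tested. No gene of this list, of the leucine zipper partners or of the MAP kinase list passed the adjusted test in edgeR in any pair of groups or in the interaction. In semaglutide against saline 23 of 37 were negative (median -0.29), with Myc, the growth factor-induced regulator, at -1.20 ± 0.35 (SE), and the MAP kinase phosphatases Dusp6 at -1.22 ± 0.46 and Dusp4 at -2.11 ± 0.85. In PYY against saline 24 of 37 were positive (median 0.20). The shares of all genes that were positive were 47.6% in semaglutide and 49.5% in PYY against saline, and 52.5% in saline against healthy control, here and for the lists that follow. In saline against healthy control 23 of 37 were positive (median 0.08), with the orphan nuclear receptor gene Nr4a2 at 1.88 ± 0.59. Of the leucine zipper partners of AP-1, 22 of 24 were tested and 13 were positive in saline against healthy control. Of the 22 genes 5 had an unadjusted p under 0.05 and were positive, where 6.55% of all genes had such a p in either direction, with Creb1 at 1.82 ± 0.43, Bach1 at 1.83 ± 0.53 and Atf7 at 1.47 ± 0.47. Among MAP kinases and regulators of AP-1, 22 of 29 tested genes were positive in semaglutide against saline (median 0.22). In PYY against saline 13 of 29 were positive (median -0.07), with Cop1, a ubiquitin ligase that marks Jun for breakdown, at -0.57 ± 0.25, Map2k1, the kinase above ERK, at -0.46 ± 0.21, and Rps6ka5, a kinase that acts on histones and CREB, at 0.76 ± 0.34.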

How the data were processed

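Per the labels, polyadenylated RNA of rat femora was extracted with a PureLink kit, and the library protocol names both strand-specific and other preparations, so overlapping genes are uncertain. The authors deposited raw gene counts and FPKM. The deposited FPKM were used as they stand, and only for comparisons between genes. Per the submitters' processing notes, the build is mRatBN7.2, and DESeq2 1.42.0 was among the tools. The aligner and counter are not given in the sources here.

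Counts were tested in R 4.3.3 with edgeR 4.0.16 (TMM scaling, filterByExpr by group, robust quasi-likelihood test). All 23 libraries of 5 groups were fitted together, with 18 residual degrees of freedom and a common biological coefficient of variation of 69.9%. Adjusted p-values are Benjamini-Hochberg over the 15271 tested genes, and calls were made at 0.05. Levels are TMM-scaled CPM. Log2 CPM used a prior count of 2. The SE of a log2 fold change is its size over the square root of F, and intervals are at 95%. The test was checked on simulated counts. Alternatives were RLE scaling, no low-count filter, no mitochondrial genes, the skeletal muscle level as covariate, only the groups compared, DESeq2, and leaving out each library.

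In the 42 pairs of libraries within groups, chi-square over its degrees of freedom was at least 46.7, and each library counted as 1 sample. All 10 members are named. Other genes are the 3 most like each member and, of 5 pathway lists, those with an unadjusted p under 0.05 in a comparison with saline on either side, at most 3 per list and comparison. The members and lists were chosen with earlier results of these data known. Of 217 list entries 213 matched by symbol. Some genes that this rule names are not reported here.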

Additional observations from a re-analysis of the deposited data

Results flagged for a closer look

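Of 50 sets of member levels in CPM (10 genes in 5 groups), 7 held 1 library far from the rest of its group by Dixon's test at the 95% level. For normally distributed levels, chance gives this in about 1 of 20 sets. That CPM follow such a distribution was not tested, so no excess of the 7 sets over chance was shown. In the semaglutide group, library A241 had Fos at 30.38 CPM, where the other 4 held 8.995 to 13.54 CPM, and Junb at 12.37 CPM, where the others held 4.318 to 5.245 CPM. This library also had the highest summed neutrophil level of its group, 2000 CPM, against 91.5 to 496 CPM in the others, and its part in these values was not tested. Semaglutide library A242 had Fosl1 at 1.549 CPM, against 0 to 0.274 CPM in the others. In the saline group, Fos was 24.87 CPM in library A226, against 9.122 to 12.43 CPM in the others, and Fosl2 was 11.89 CPM in A229, against 4.307 to 5.212 CPM. Combination library A253 had Jund at 23.65 CPM, against 13.33 to 15.82 CPM. Healthy control library A390 had Atf3 at 52.21 CPM, against 1.496 to 8.233 CPM. In all 7 sets the library that stood apart was the highest of its group, and the part of a skew towards high CPM in this was not tested.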

How the results depend on the processing

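All 522 recomputed log2 fold changes of members with an unadjusted p under 0.05 kept their sign. This was likely from the start, because they were selected by their p in the same libraries. Of the 522 values 7 were called, 4 in DESeq2 and 3 in edgeR without PYY library A220, all given above, as are the 2 calls of DESeq2 over the 5 groups. The other 2658 values gave no call, and 123 changed sign. Counts of called genes rested on the tool. DESeq2 called 47 genes in saline against healthy control, 89 in semaglutide against saline, 3 in PYY against saline, 2 in combination against saline, 80 in semaglutide against healthy control and 38 in combination against healthy control, where edgeR called 0 in each. It called 12 in combination against semaglutide, 10 in combination against PYY and 3 in the interaction, again against 0. In PYY against healthy control edgeR called 3 genes, RLE scaling 14, no mitochondrial genes 12, only the groups compared 0 and DESeq2 399. In semaglutide against PYY edgeR called 1 and DESeq2 487. Over the 5 groups edgeR called 1, RLE scaling 2, no mitochondrial genes 2 and DESeq2 321. The cause was not tested.

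With single libraries left out, counts ran from 1 to 39 over the 5 groups, 2 to 59 in PYY against healthy control and 1 to 1021 in semaglutide against PYY, highest without PYY library A220 in each. They ran from 0 to 1 in PYY against saline and 0 to 2 in combination against PYY (without A220), 0 to 3 in combination against semaglutide (without combination library A251), 0 to 1 in combination against healthy control (without A253) and 0 to 1 in semaglutide against healthy control (without A243). They stayed at 0 in saline against healthy control, semaglutide against saline, combination against saline and the interaction. No paired analysis was possible because the labels give no number that groups share. Fosl1, at 154 counts in all, was limited by depth.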

Other observations

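Heat shock genes, a list of chaperone genes, their cofactors and Hsf1 itself, were counted for comparison. In semaglutide against PYY 13 of 14 had positive log2 fold changes (median 0.65, against -0.07 over all genes), where 46.7% of all genes were positive. In semaglutide against saline 12 of 14 were positive (median 0.34), and in PYY against saline 3 of 14 (median -0.30), with the chaperone gene Hsph1 at -0.67 ± 0.28 (SE). None passed the adjusted test in edgeR, where 5 of 14 had an unadjusted p under 0.05 in semaglutide against PYY, a level that 16.9% of all genes reached. Summed levels overlapped, at 1590 to 2510 CPM in semaglutide and 890 to 2020 CPM in PYY.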
